A study of Mus musculus with 12 samples.

Results

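A day (24 h) without food was compared with free feeding in the liver of wild-type (WT) mice. The comparison takes 6 of the 12 mice of the study, 3 fed and 3 starved, and each mouse gave 1 array. These mice were chosen by their labels alone. Both groups ate a standard chow, and the starved group kept its water while food was withheld for 24 h. The labels call them wild type and do not say whether they carried loxP sites or Cre. Their age and sex are not in the labels. The other 6 mice were a knock-out (KO), fed or starved in the same way, in which Albumin-Cre, active in hepatocytes, cut out a loxP-flanked exon of Lamp2, and they came from several bred lines. Lamp2 encodes a protein of the lysosomal membrane, and chaperone-mediated autophagy, which brings single proteins to the lysosome, uses one of its isoforms as receptor. The KO mice serve here as a separate set of animals and for the test of a difference between genotypes. They also enter the estimate of the spread behind the p-values of the WT comparison.

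A liver that goes without food first spends its glycogen, then burns fatty acids that arrive from adipose tissue, exports part of the carbon as ketone bodies, and makes glucose from lactate, glycerol and amino acids. Falling insulin and rising glucagon, glucocorticoids and free fatty acids drive this shift through factors such as FOXO1, the cAMP responsive factors, the glucocorticoid receptor and PPAR-alpha, a nuclear receptor for fatty acids. The synthesis of fatty acids and cholesterol, which depends on insulin and on the SREBP factors, is shut down in the same period.

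The levels of the 20719 genes are on a log2 scale, on which 1 unit equals a factor of 2, and a level cannot be compared between genes. Values of single mice are always given in the order F1, F2 and F4 for the fed mice and S3, S4 and 3 for the starved mice, which are the codes in the sample titles. The tissue was liver by its hepatocyte markers: Alb, encoding albumin, lay between 14.14 and 14.24 in all 6 mice, and the summed level of 12 hepatocyte markers lay between 16.88 and 17.18. The arrays differed in the spread of their values. Fed F1 and starved S3 and S4 had a wide spread, with SDs of 2.24, 2.26 and 2.26 over all lines. Fed F2 and F4 and starved 3 had a narrow one, with SDs of 2.15, 2.20 and 2.15. The median correlation of an array with its own group was lowest for starved 3, at 0.978, and highest for fed F4, at 0.987. All values come from whole liver pieces, in which fewer cells of a type and less RNA per cell cannot be told apart. Nothing in the labels says more about the origin of the mice, so p-values measure the spread between these animals.

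Starvation raised genes such as Cyp4a14, Mt2 and Lcn2 and lowered others such as Hsd3b5, Serpina4-ps1 and Thrsp. In limma, 292 of 20719 genes passed an adjusted p of 0.05, which is 1.41% of those tested. Of these, 137 rose (0.661%) and 155 fell (0.748%). The gene lists described below held 94 of them, and the other 198 were on no list. Counts of calls in these lists stand against the 1.41% of all genes. The lists and their members were chosen with earlier results of these data known. A share above 1.41% can follow in part from that choice and is a description only. A short list with 1 call or none cannot be told apart from that share. Counts at an unadjusted p under 0.05 are given by value only, without the share over all genes, so none can be read as many or few. The values of the 3 starved mice lay wholly above or wholly below those of the 3 fed mice at all 292, whereas this was so at 2693 genes (13.0%) of all those tested, 1091 higher and 1602 lower. The median difference was 0.99 for the genes that rose and -0.96 for those that fell, against -0.0053 over all genes. At least 2-fold differences numbered 67 among the genes that rose and 72 among those that fell, at least 4-fold ones 23 and 19, and at least 8-fold ones 7 and 3. The calls lay mostly among well expressed genes. When the genes were split into 3 equal classes of mean level, the highest class held 113 that rose and 112 that fell, the middle class 24 and 38, and the lowest class 0 and 5.

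**Figure D1:**
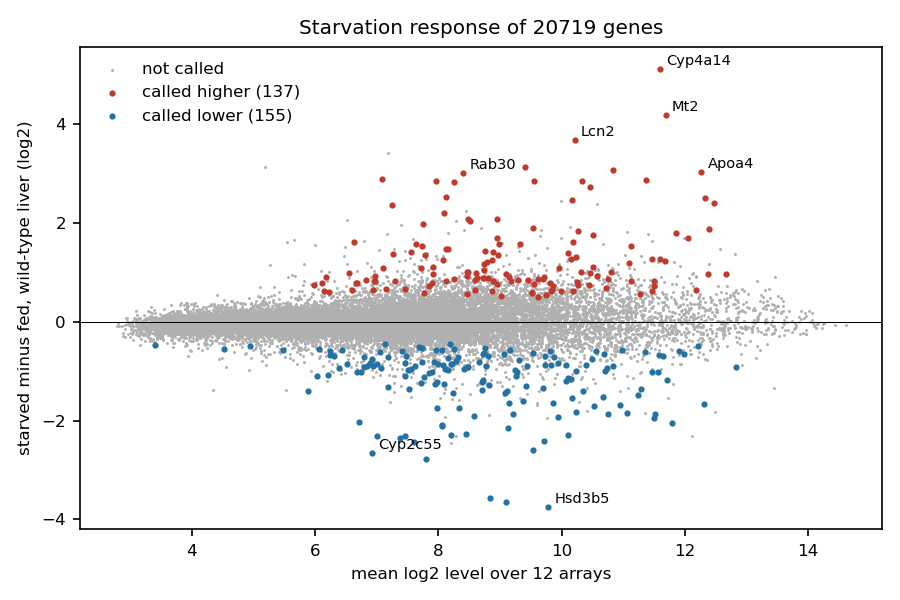
Difference between starved and fed WT mice (y, log2) against the mean level over 12 arrays (x, log2) for 20719 genes. Red points are the 137 genes called higher, blue points the 155 called lower, and grey points were not called; Cyp4a14, at 5.11, and Hsd3b5, at -3.75, are the extremes of the called genes.

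The number of calls depended on single mice. Leaving out 1 WT array left 286 calls without fed F1, 107 without F2, 78 without F4, 159 without starved S3, 64 without S4 and 659 without starved 3. The genes called in every one of these 6 fits numbered 52, of which 29 rose and 23 fell. They are marked below as held without any array, meaning any WT array. The KO arrays enter the estimate of the spread, so the WT calls depended on them too. Leaving out 1 KO array left between 151 WT calls, without KO starved S7, and 326, without KO fed F6. With the 6 WT arrays alone, which leave fewer degrees of freedom, 11 genes were called: Cyp4a14, Gpcpd1, Slc25a47, Rgs16, Cyp4a10, Txnip, Apoa4, Cyp4a32 and Cyp4a31 higher, Aacs and Gstm6 lower. With the spread class of the arrays as a block in the fit, all 292 were still called, among 1225 genes called in all. All 292 differences also kept their sign within the arrays of wide spread and within those of narrow spread. That had to follow, because starved and fed values did not overlap at any of the 292 genes.

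Genes called by the difference between starved and fed KO mice gave sets on which the WT mice could be placed one by one. The choice was not wholly free of the WT mice, because the spread was estimated over all 12 arrays. The 212 KO calls became 344 without WT starved 3 and 167 without WT fed F4. Over the 101 genes called higher in starved KO mice, the median distance of a starved WT mouse from the fed WT mice was 1.25 in S3, 1.36 in S4 and 0.76 in starved 3. The 3 fed mice, each set against the other 2, lay at 0.17, -0.21 and 0.02. Over the 111 genes called lower in KO mice, the starved WT mice lay at -0.85, -0.89 and -0.65 and the fed ones at 0.05, -0.11 and 0.06. The starved mice were thus apart from the fed mice on both sets, with starved 3 the nearest to the fed mice. The same order held over the genes called in WT mice, where it is a description only: S4 lay farthest from the fed mice at 91 of 137 and 96 of 155 genes, and starved 3 was the nearest of the starved mice at 82 and 95.

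**Figure D2:**
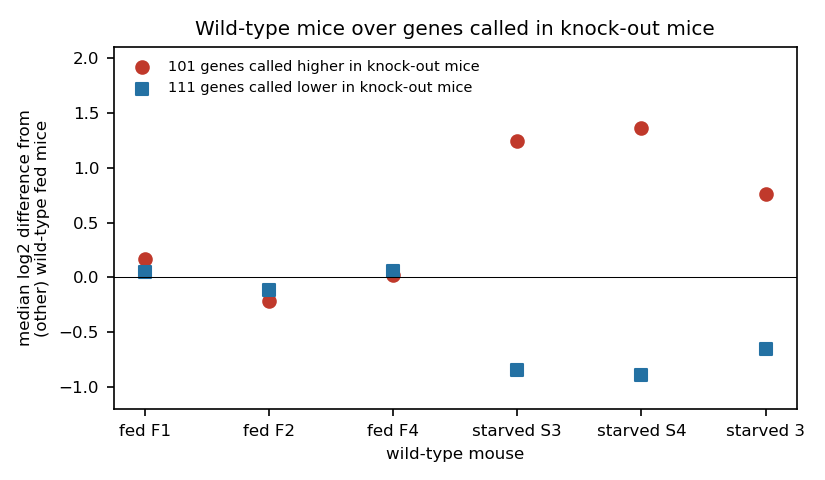
Median log2 difference of each WT mouse from the (other) fed WT mice (y) over the genes called higher (101, red circles) and lower (111, blue squares) by starvation in KO mice. The fed mice lie between -0.21 and 0.17, and starved 3 lies between them and the starved mice S3 and S4.

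The largest rise was that of Cyp4a14, a cytochrome P450 that hydroxylates the end of fatty acid chains and a classical PPAR-alpha target. It was at 9.40, 7.86 and 8.84 in the fed mice and at 13.91, 13.95 and 13.58 in the starved mice. The groups were far apart, and the rise of 5.11 (SE 0.39, adjusted p = 0.000342) was 34.6-fold and held without any array. Gpcpd1, which breaks down glycerophosphocholine, had values of 9.57, 9.06 and 9.39 against 12.00, 12.46 and 11.73. Its rise of 2.73 (SE 0.20, adjusted p = 0.000342) was smaller and held without any array as well. Apoa4, an apolipoprotein of triglyceride-rich particles, was at 11.52, 10.66 and 10.23 fed and at 13.95, 14.04 and 13.49 starved, a rise of 3.02. Slc25a47, a mitochondrial carrier of the liver, was at 11.25, 10.81 and 10.90 fed and at 13.01, 12.63 and 12.71 starved, a rise of 1.80 (SE 0.16). The small GTPase gene Rab30 stood at 7.73, 6.66 and 6.31 against 10.15, 10.39 and 9.17 starved, a rise of 3.00. None of these 5 genes had overlapping groups, and all 5 held without any array. Slc16a5, a monocarboxylate transporter family member, rose by 2.82 and held likewise.

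The largest fall was that of Hsd3b5, a steroid-metabolizing enzyme gene of male mouse liver. It was at 10.87, 11.89 and 11.68 in the fed mice and at 7.39, 6.69 and 9.10 in the starved mice. The fall of -3.75 (SE 0.52, adjusted p = 0.00834) was 13.5-fold and held without any array, although starved 3 lay well above the other starved mice. Serpina4-ps1, a serpin pseudogene, followed with values of 11.62, 10.64 and 10.84 against 6.86, 6.54 and 8.77, a fall of -3.64. Its call was lost without fed F4 or starved S4 (highest adjusted p 0.0677). Clec2h, a C-type lectin gene (-2.44), and Klk1b4, a kallikrein (-2.35), fell, and both calls were lost without F2, F4, S3 or S4 (highest adjusted p 0.117). Car1, a carbonic anhydrase also abundant in red blood cells, was at 10.42, 10.76 and 10.50 fed and at 8.20, 7.11 and 9.14 starved. Its fall of -2.40 was lost without F2, F4, S3 or S4 (highest adjusted p 0.0877). Alas2, the heme synthesis enzyme of red cells, fell by 1.65 on the log2 scale and held without any array. These 2 were the only calls among 15 red blood cell markers. The hemoglobin genes Hba-a1, Hba-a2 and Hbb-b1 differed by 0.02, 0.01 and -0.11, and the summed level of the list ran from 14.31 to 14.55 in fed and from 13.99 to 14.42 in starved mice. Their part in the falls of Car1 and Alas2 was not tested.

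**Figure D3:**
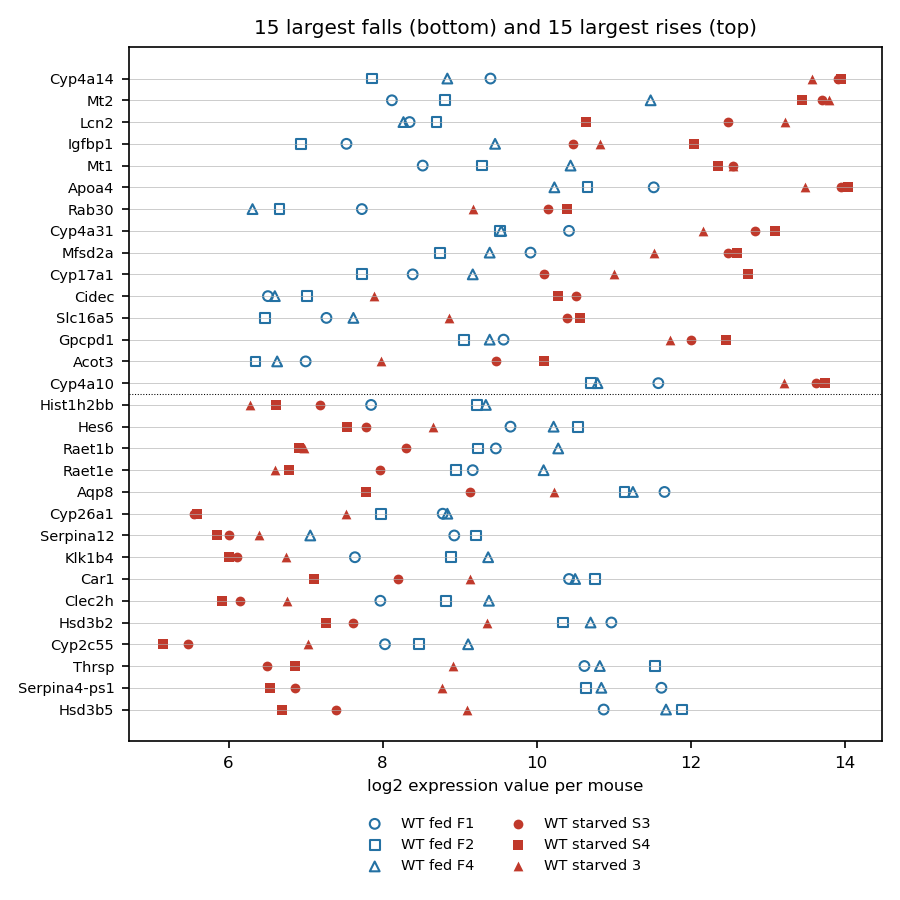
Log2 expression value of each WT mouse (x) for the 15 genes with the largest rises and the 15 with the largest falls among called genes (y). Open blue symbols are fed mice and filled red symbols starved mice; the groups do not overlap at any of the 30 genes, and starved 3 (triangles) is often the starved mouse nearest to the fed ones.

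Of 43 measured PPAR-alpha targets, 11 were called higher and none lower (25.6%, against 1.41% of all genes). As with the other lists, the members were chosen with earlier results of these data known, so this share is not a test. The median difference of the 43 was 0.97. The groups of 3 were apart upwards at 15 and downwards at 2. Over all genes, 13.0% were apart in either direction. Cyp4a10 was at 11.58, 10.71 and 10.79 fed and at 13.63, 13.75 and 13.21 starved, a rise of 2.50 (SE 0.22, adjusted p = 0.000823). Cyp4a31 rose by 2.87 and Cyp4a32, which was not on the list, by 2.40, and the 3 genes held without any array. Near-identical copies, as in the Cyp4a, Hsd3b, Gstm, Acot and Raet1 families, may share probe signal. By contrast Cyp4a12a, which belongs to the same family, differed by -0.41 and was not called. Acot3, a peroxisomal acyl-CoA thioesterase, rose by 2.52. Angptl4, a secreted inhibitor of lipoprotein lipase, rose by 1.61, Retsat, a retinol saturase, by 1.87, and Hsdl2 by 0.92. Txnip, a thioredoxin-binding protein that restrains glucose uptake, rose by 1.40. Fgf21, the fasting hormone of the liver, was at 6.06, 6.08 and 5.91 fed and at 7.32, 6.94 and 6.73 starved, a rise of 0.98 (SE 0.17, adjusted p = 0.0192). Ppara itself differed by 0.60 without a call. The calls of Acot3, Angptl4, Retsat, Hsdl2 and Fgf21 were lost without F2, F4, S3 or S4, and that of Txnip without F4 or S4 (highest adjusted p of these 0.193). The number of targets called higher fell to 3 without F4 or S4 and was 23 without starved 3.

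In the list of the carnitine shuttle and mitochondrial beta-oxidation, 2 of 25 genes were called, both higher, with a median difference of 0.64. Eci2, an enoyl-CoA isomerase needed for unsaturated chains, was at 10.43, 10.29 and 10.13 fed and at 11.23, 11.19 and 11.01 starved, and its rise of 0.86 (SE 0.11) held without any array. Decr1, the dienoyl-CoA reductase that serves the same chains, rose by 0.56, a call lost without F2, F4 or S4 (highest adjusted p 0.0682). Cpt1a, the rate-limiting entry of long chains into mitochondria, was at 11.38, 9.89 and 10.33 fed and at 12.95, 12.66 and 11.33 starved. The groups overlapped by fed F1 and starved 3, and the difference of 1.78 had an adjusted p of 0.13. Without starved 3, 10 of the 25 genes were called higher. Among 34 peroxisomal genes the median was 0.46, Ehhadh, the bifunctional enzyme of peroxisomal oxidation, differed by 1.69 without a call (adjusted p = 0.2), and Nudt7, which hydrolyses coenzyme A in peroxisomes, fell by 1.18. That fall was lost without F2 or F4 (highest adjusted p 0.0782).

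Of 10 ketone body genes 2 were called, both lower, with a median of 0.36 (0.18 without F2 and 0.21 without S3). Aacs, which returns acetoacetate to lipid synthesis in the cytosol, was at 8.86, 9.01 and 8.81 fed and at 7.07, 6.98 and 7.37 starved. Its fall of -1.75 (SE 0.18, adjusted p = 0.0015) held without any array. Bdh2, a cytosolic dehydrogenase first described for hydroxybutyrate, fell by 1.38, a call lost without F2, F4, S3 or S4 (highest adjusted p 0.149).

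Genes of lipid uptake and storage rose at a few points. Mfsd2a, a transporter of lysophospholipids, was at 9.92, 8.74 and 9.39 fed and at 12.48, 12.60 and 11.53 starved, and its rise of 2.85 (SE 0.32) held without any array. It was, with Angptl4, 1 of 2 calls among 24 genes of fatty acid uptake, binding and activation. That list as a whole did not rise: its median was -0.04, and the groups were apart upwards at 3 genes and downwards at 7. Among 25 genes of lipid droplets and lipolysis 3 rose and none fell. Plin5, which coats droplets at their contact with mitochondria, was at 8.54, 8.17 and 8.40 fed and at 9.54, 10.03 and 9.58 starved, a rise of 1.34 that held without any array. Pnpla2, the first lipase of triglyceride breakdown, rose by 1.89, a call lost without F2, F4 or S4 (highest adjusted p 0.0638). Cidec, which fuses droplets, was at 6.51, 7.02 and 6.60 fed and at 10.51, 10.28 and 7.89 starved. Starved 3 lay between the fed mice and the other starved mice, and the rise of 2.85 was called with all arrays or without starved 3, not when any other WT array was left out (highest adjusted p 0.117). Cidec is also an adipocyte marker, 1 of 11, and the only call among them. The summed level of that list was lower in starved mice, between 12.59 and 13.49 against 13.96 to 14.24, with Adipoq, Lep and Plin1 differing by -0.03, -0.01 and -0.12 and Car3, which hepatocytes also express, by -1.33. Its part in the rise of Cidec was not tested. Triglyceride synthesis had 2 calls among 30 genes, both higher: Dgat1, the last enzyme, by 0.85 and the acyltransferase Agpat3 by 0.62, lost without F1, F4, S3 or S4 (highest adjusted p of the pair 0.142), Dgat1 also without F2. Apoa4 was the only call among 24 apolipoproteins and assembly genes.

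Of 22 genes of de novo lipogenesis 7 were called lower and none higher, with a median of -0.51. Thrsp, an insulin- and thyroid-responsive activator of lipogenesis, was at 10.62, 11.54 and 10.82 fed and at 6.50, 6.86 and 8.91 starved, a fall of -3.57 (SE 0.59, adjusted p = 0.017). Srebf1, encoding the SREBP-1 factors that switch on the pathway, was at 9.83, 9.04 and 9.13 fed and at 7.67, 7.16 and 7.94 starved. Its fall of -1.74 (SE 0.25) held without any array, as did that of Aacs. Also lower were Acly, which makes cytosolic acetyl-CoA from citrate (-1.30), Mid1ip1, which activates acetyl-CoA carboxylase (-1.23), Acss2, which makes acetyl-CoA from acetate (-0.87), and the citrate carrier Slc25a1 (-0.61). Fasn, the fatty acid synthase, was at 11.17, 9.85 and 9.81 fed and at 8.26, 9.15 and 9.04 starved, which did not overlap, yet the difference of -1.46 had an adjusted p of 0.111. Acaca and Acacb, the carboxylases themselves, differed by -0.24 and 0.05. Elovl3, an elongase of very long chains, was the only call among 19 elongases and desaturases. Its values of 13.18, 12.63 and 13.17 against 10.52, 10.73 and 11.57 gave a fall of -2.05 that held without any array. The calls of Thrsp, Acly, Mid1ip1, Acss2 and Slc25a1 were lost when S3 or S4 was left out, and for some of them also without F1, F2, F4 or 3 (highest adjusted p of the 5 genes 0.217); the list had 2 calls without S3 or S4 and 6 without starved 3.

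Cholesterol synthesis had the lowest median of all lists, -0.95 over 25 genes, with 5 called lower and none higher. Mvd, the decarboxylase of the mevalonate pathway, was at 8.31, 8.29 and 8.17 fed and at 6.85, 7.11 and 7.48 starved, and its fall of -1.11 (SE 0.15, adjusted p = 0.00834) held without any array. Fdps, which makes farnesyl diphosphate, was at 11.24, 11.44 and 11.55 fed and at 9.17, 9.15 and 10.80 starved, a fall of -1.71. Tm7sf2, a sterol reductase (-1.52), Pmvk, phosphomevalonate kinase (-1.25), and the thiolase gene Acat2 (-0.84) fell as well. Insig1, a sterol-sensing gene whose product holds SREBPs in the endoplasmic reticulum and which is itself their target, differed by -1.96 and was called lower. Starved 3 lay nearest to the fed mice at each of these 6 genes. Without it 12 genes of cholesterol synthesis were called lower, and without F4, S3 or S4 only Mvd was. The other 5 calls ended without F4, S3 or S4 (highest adjusted p 0.182), Fdps, Insig1 and Acat2 also without F1 or F2, and Pmvk without F2.

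Genes that make glucose had a raised median and 1 call. Ppargc1a, the coactivator PGC-1 alpha of gluconeogenesis and mitochondrial genes, was at 8.14, 7.28 and 7.77 fed and at 10.23, 10.52 and 8.56 starved, a rise of 2.04 (SE 0.42, adjusted p = 0.0408). Its call was lost without F2, F4, S3 or S4 (highest adjusted p 0.182). The median of the 27 genes was 0.53. Pck1, the key enzyme phosphoenolpyruvate carboxykinase, was at 12.70, 11.03 and 12.16 fed and at 13.46, 13.35 and 12.58 starved. Its groups overlapped, and the difference of 1.17 (95% interval 0.09 to 2.24, adjusted p = 0.346) was not called. G6pc, glucose 6-phosphatase, differed by 0.53 and overlapped as well. In limma no gene of 30 in glycolysis and pyruvate oxidation was called, and 5 had an unadjusted p under 0.05. Ppp1r3c, a scaffold that brings phosphatase 1 to glycogen and favours its synthesis, was the only call among 21 glycogen genes. It fell from 10.40, 10.19 and 10.14 to 8.71, 7.97 and 9.26, a difference of -1.60, and the call was lost without F2 or F4 (highest adjusted p 0.059).

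Nitrogen metabolism changed at single genes. Asl, the urea cycle enzyme that splits argininosuccinate, was at 11.58, 10.84 and 11.50 fed and at 12.34, 12.98 and 12.28 starved, a rise of 1.23. It was 1 call among 20 urea cycle genes with a median of 0.44 (0.23 without F2), and it was lost without F2, F4 or S4 (highest adjusted p 0.0775). Gamt, which makes creatine with the methyl group of S-adenosylmethionine, was at 11.95, 12.05 and 11.90 fed and at 10.83, 10.07 and 10.91 starved. Its fall of -1.36 (SE 0.19, adjusted p = 0.0085) held without any array and was the only call among 29 one-carbon genes. Of 55 genes of amino acid breakdown, 1 was called (1.82%, near the 1.41% of all genes). Qdpr, which regenerates the cofactor of phenylalanine hydroxylase, fell by 0.59, a call lost without F1, F4, S3 or S4 (highest adjusted p 0.123). None of 20 aminoacyl-tRNA synthetase genes was called by limma, and 3 had an unadjusted p under 0.05.

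Genes tied to insulin and FOXO factors had 4 calls higher and 1 lower among 34, with a median of 0.43 (0.29 without F2 and 0.23 without S4). Igfbp1, a secreted binding protein of insulin-like growth factors that insulin represses, was at 7.53, 6.94 and 9.46 fed and at 10.47, 12.04 and 10.82 starved. The groups did not overlap, although fed F4 stood high, and the rise of 3.13 (SE 0.57, adjusted p = 0.0241) was 8.79-fold. It was lost without F1, F2 or S4 (highest adjusted p 0.108). Its promoter is shown because it is the textbook case of an insulin response element bound by FOXO factors. The 250 bases before the RefSeq start of Igfbp1 (chr11:7197537-7197786, plus strand, GRCm38.p6) are printed with the core CAAAACA in capitals, which was searched on both strands.
Igfbp1: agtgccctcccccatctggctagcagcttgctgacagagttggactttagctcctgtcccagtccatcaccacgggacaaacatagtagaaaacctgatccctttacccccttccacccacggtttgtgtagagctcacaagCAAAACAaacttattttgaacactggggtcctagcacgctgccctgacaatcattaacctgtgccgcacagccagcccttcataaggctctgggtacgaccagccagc
The core lies 108 to 102 bases before the start, and 4.53% of the 15624 promoters of tested genes in the RefSeq table hold one. Among 27 promoters of the insulin and FOXO list 5 did, 18.5%, against 2.88% of 104 promoters of genes that rose. Eif4ebp3, a repressor of cap-dependent translation, was at 9.42, 9.63 and 8.78 fed and at 10.77, 12.35 and 12.07 starved, a rise of 2.45, lost without F4 or S4 (highest adjusted p 0.0889). The other calls of the list were Ppargc1a and Txnip, higher, and Ppp1r3c, lower, and without S4 none was called higher. Igfbp2, another binding protein, rose by 1.18, a call held only without starved 3 among the single omissions (highest adjusted p 0.207). Igf1 differed by 0.07 (95% interval -0.18 to 0.31).

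Glucocorticoid-responsive genes had 7 calls higher and 1 lower among 29, with a median of 0.68 (0.31 without S4). The 7 were Mt1, Mt2, Lcn2, Igfbp1, Angptl4, Per1 and Gadd45b. Gadd45b, a stress-responsive growth regulator, was at 6.32, 7.02 and 6.73 fed and at 7.79, 9.42 and 8.80 starved, a rise of 1.98 that was lost without F4 (adjusted p 0.0638). Fkbp4, a chaperone of steroid receptors, was at 9.75, 9.58 and 9.89 fed and at 8.70, 8.72 and 8.86 starved, and its fall of -0.98 held without any array. Members of the list did not all follow: Tsc22d3, one of its best known targets, differed by -0.68 (adjusted p = 0.0577) and Fkbp5 by 1.33 with overlapping groups (adjusted p = 0.164). The list counted 3 higher calls without F2 or S4.

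The metallothioneins, which bind zinc and respond to metals and to glucocorticoids, rose strongly. Mt2 was at 8.12, 8.81 and 11.48 fed and at 13.70, 13.44 and 13.80 starved. The starved mice were close together, whereas fed F4 stood far above the other fed mice, and the fed range of Mt2 was among the 5 widest of all genes. Its rise of 4.17 (SE 0.69, adjusted p = 0.0164) was lost without F2, S3 or S4 (highest adjusted p 0.0672). Mt1 was at 8.52, 9.29 and 10.44 fed and at 12.55, 12.35 and 12.55 starved, a rise of 3.07 (SE 0.36, adjusted p = 0.00309) that held without any array. Mt3 and Mt4, which are genes of brain and skin, differed by -0.01 and -0.16. Both promoters are shown because the pair lies side by side on chromosome 8 and rose together. The 250 bases before the starts of Mt1 (chr8:94178839-94179088) and Mt2 (chr8:94172368-94172617), both on the plus strand of GRCm38.p6, carry in capitals the metal response core in its forms TGCACNC and TGCGCNC, searched on both strands.
Mt1: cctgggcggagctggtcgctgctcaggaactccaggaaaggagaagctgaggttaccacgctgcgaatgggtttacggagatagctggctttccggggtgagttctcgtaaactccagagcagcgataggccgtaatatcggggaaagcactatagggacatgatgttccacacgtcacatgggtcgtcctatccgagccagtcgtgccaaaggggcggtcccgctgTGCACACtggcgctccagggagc
Mt2: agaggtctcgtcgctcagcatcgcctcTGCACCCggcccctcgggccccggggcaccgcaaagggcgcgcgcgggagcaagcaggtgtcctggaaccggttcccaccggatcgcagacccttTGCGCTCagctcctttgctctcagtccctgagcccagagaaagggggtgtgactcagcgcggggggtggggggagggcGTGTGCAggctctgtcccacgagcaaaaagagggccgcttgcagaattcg
Mt1 held 1 match, 23 to 17 bases before the start, and Mt2 held 3, at -223 to -217, at -128 to -122 in the second form, and at -50 to -44 on the minus strand. The matches do not overlap. Of all 15624 promoters, 10.3% held the first form and 17.0% the second. Hamp2, a hepcidin gene of the iron axis, fell by 1.86, lost without F2, F4, S3 or S4 (highest adjusted p 0.217), and Hamp differed by 0.23.

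Of 25 genes that are male-biased in liver 6 were called lower and none higher, with a median of -0.35 (-0.23 without S3). Of 29 female-biased genes 7 were called higher and none lower, with a median of 0.28 (0.09 without F2). The lists were not compared in a test. Both sets lie under the control of pulsed growth hormone. On the male side were Hsd3b5, Elovl3, the organic anion carrier Slco1a1 (-1.84), the anion transporter Slc22a28 (-1.83), Selenbp2 (-1.69) and Nudt7. On the female side were Cyp4a14, Cyp4a10, Acot3, Cyp17a1, Nipal1, Fmo2 and Slco1a4, of which 3 are also PPAR-alpha targets. Cyp17a1, a steroid hydroxylase, was at 8.39, 7.73 and 9.17 fed and at 10.10, 12.74 and 11.01 starved, a rise of 2.85. Nipal1, a magnesium transporter family member, was at 5.97, 5.97 and 6.79 fed and at 9.09, 8.97 and 7.72 starved, a rise of 2.35. Fmo2, a flavin monooxygenase, rose by 2.19. Other members were far from a call: the female-biased Cyp2b9 ranged from 8.20 to 11.90 in fed and from 5.89 to 12.36 in starved mice, and the median of 10 Mup genes, male-biased urinary proteins, was -0.17. Sult1e1, an estrogen sulfotransferase, was at 3.92, 4.19 and 3.98 fed and at 4.55, 8.51 and 8.43 starved, so that 2 starved mice carried the difference of 3.13 (adjusted p = 0.158). Of the sex chromosome transcripts, Xist lay between 3.86 and 4.32 in all, and the Y-linked Ddx3y was at 9.38, 9.09 and 9.22 fed and at 9.97, 9.64 and 9.89 starved (adjusted p = 0.0514). Calls lost under single omissions were those of Slco1a1 (without F2, F4 or S4), Slc22a28 (without F4), Selenbp2 (without any but starved 3), Nudt7 (without F2 or F4), Cyp17a1 (without F1, F2, F4 or S4), Nipal1 (without S4), Fmo2 (without F2 or F4), Acot3 (without F2, F4, S3 or S4) and Slco1a4 (without any but S3), with a highest adjusted p of 0.201. The male list had 2 lower calls without F4, and the female list 3 higher calls without F2, F4 or S4.

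Hsd3b5 has neighbours of its own family on chromosome 3, and they fell with it. Hsd3b2 was at 10.97, 10.34 and 10.70 fed and at 7.62, 7.26 and 9.36 starved, Hsd3b3 at 11.74, 12.02 and 12.00 against 10.43, 10.11 and 10.77, and Hsd3b4 at 7.50, 7.72 and 7.62 against 4.91, 5.75 and 6.11. The falls were -2.59, -1.48 and -2.03, and all but that of Hsd3b2 (lost without F4, S3 or S4, highest adjusted p 0.0638) held without any array. In all 4 of 7 measured Hsd3b genes were called lower; these copies are similar in sequence, and shared signal cannot be told apart from shared change.

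Clock genes were read at 1 time of death that the labels do not give. Of 27, 4 were called higher and 1 lower, with a median of 0.29 that was 0.12 without F2, 0.18 without F4 and 0.07 without S4. Gm129, now named Ciart, a repressor of the clock, was at 6.05, 5.88 and 5.86 fed and at 7.34, 9.89 and 9.20 starved, a rise of 2.88. Rgs16, which dampens G protein signals and oscillates in liver with feeding, was at 7.18, 7.02 and 6.92 fed and at 9.25, 8.70 and 9.42 starved, a rise of 2.08. Nr1d2, a heme-binding repressor of the clock, rose by 1.44 and Per1, a core repressor that glucocorticoids also raise, by 1.41. Per1 was at 7.57, 6.84 and 6.83 fed and at 8.35, 9.08 and 8.04 starved. Nfil3, a repressor of D-box genes, fell by 0.92. Among genes without a call, Npas2 differed by -1.63 with groups apart (adjusted p = 0.0553), Nr1d1 by 1.89 (adjusted p = 0.165) and Arntl, which pairs with Clock or Npas2, by -0.35. The promoter of Per1 is shown because it holds the E-box CACGTG that Clock and Arntl bind, in capitals, in the 250 bases before the first of 2 RefSeq starts (chr11:69098699-69098948, plus strand, GRCm38.p6).
Per1: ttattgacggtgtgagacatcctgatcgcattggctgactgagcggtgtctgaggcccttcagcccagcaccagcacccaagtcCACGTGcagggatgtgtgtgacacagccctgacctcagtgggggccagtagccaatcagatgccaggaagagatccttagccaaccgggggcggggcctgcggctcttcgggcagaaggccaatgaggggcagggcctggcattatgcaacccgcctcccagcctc
The E-box lies at -166 to -161 from that start, and 7.05% of all promoters held one in this window, 4 of 20 in the clock list. The calls of Gm129, Nr1d2, Rgs16 and Per1 were lost without F2, F4 or S4, the latter pair also without S3, and that of Nfil3 without any array but starved 3 (highest adjusted p 0.141); no clock gene was called higher without F2, F4 or S4.

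Genes of protein breakdown had few calls and medians above that of all genes. The proteasome list had 3 of 42 called, all higher, and a median of 0.35. Psmd9, an assembly chaperone of its cap, was at 7.81, 8.02 and 7.96 fed and at 8.83, 8.78 and 8.76 starved, and its rise of 0.86 (SE 0.11) held without any array. The cap subunit genes Psmd12 and Psmc3 rose by 0.63 and 0.52, calls lost without F2, F4, S3 or S4 and, for Psmc3, without F1 (highest adjusted p 0.182). By contrast the immunoproteasome genes Psmb8 and Psmb10 differed by -0.49 and -0.74 without a call. Fbxo31, a substrate receptor of a ubiquitin ligase, rose by 1.21, lost without F1, F2, F4 or S4 (highest adjusted p 0.0796). Without starved 3, 8 proteasome genes were called higher.

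Macroautophagy, the bulk route to the lysosome, had 3 of 41 genes called, all higher. Bnip3, a receptor for mitochondria, was at 11.12, 11.05 and 10.92 fed and at 11.91, 12.47 and 12.53 starved, a rise of 1.27 (SE 0.15). Map1lc3b, encoding the membrane protein LC3B, was at 10.78, 10.61 and 10.90 fed and at 11.53, 11.70 and 11.52 starved, a rise of 0.82 (SE 0.11). The calls of both held without any array. Fam134b, a receptor for endoplasmic reticulum, rose by 1.09, lost without F2 or S4 (highest adjusted p 0.0842). Among 53 lysosome genes Ctsl, the protease cathepsin L, was the only call (1.89%, near the 1.41% of all genes). It rose by 0.97, and its call in limma was lost without S4 (adjusted p 0.0623). None of 17 genes of chaperone-mediated autophagy was called by limma, and 2 had an unadjusted p under 0.05. Hspa8, its chaperone, differed by 0.41 (adjusted p = 0.355). Lamp2 over all its isoforms was at 12.61, 12.24 and 12.25 fed and at 12.68, 12.49 and 12.54 starved, a difference of 0.20 (95% interval -0.10 to 0.50, adjusted p = 0.59) with overlapping groups. No gene of 28 in the list of endoplasmic reticulum chaperones was called by limma, with 6 at an unadjusted p under 0.05. Of 27 ATF4 targets Fgf21 and Atf5 rose, by 0.98 and 0.82, both lost without F2, F4, S3 or S4 and Atf5 also without F1 (highest adjusted p 0.217).

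Of 24 measured glutathione transferase (Gst) genes, which detoxify by conjugation, 5 were called lower and 1 higher, with a median of -0.52. Gstm6 was at 11.76, 11.51 and 11.73 fed and at 9.82, 9.50 and 10.06 starved, and its fall of -1.87 (SE 0.17, adjusted p = 0.000893) held without any array. Its neighbours on chromosome 3, Gstm3, Gstm7 and Gstm2, changed by -1.02, -0.91 and -0.70, while Gstm1 differed by -0.47 with overlapping groups. Gsta4, which conjugates products of lipid peroxidation, fell by 1.54. Gstt2 rose by 1.25 and held without any array, as did Gstm3. Without S4 the calls of Gstm7, Gstm2 and Gsta4 were lost, Gstm7 also without F4 or S3 and Gstm2 also without F1, F2 or F4 (highest adjusted p 0.124). Ugt2b1, a glucuronyl transferase, fell by 0.91 and was called under no single omission but that of starved 3 (highest adjusted p 0.0873). In the Cyp2 and Cyp3a families 2 of 52 genes were called lower, Cyp2c55 (-2.65) and the vitamin D hydroxylase Cyp2r1 (-1.11), and Por, the reductase that supplies these enzymes with electrons, rose by 1.84; all 3 calls were lost without F2, F4, S3 or S4 (highest adjusted p 0.127). None of 25 NRF2 antioxidant targets was called by limma, with 7 at an unadjusted p under 0.05. Cyp26a1, which degrades retinoic acid, fell by 2.32, a call held only without starved 3 (highest adjusted p 0.184).

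Among nuclear receptors the falls of Nr0b2 and Ppard held without any array. Nr0b2, a corepressor of bile acid synthesis that bile acids induce, was at 10.07, 10.07 and 9.98 fed and at 8.72, 8.34 and 9.03 starved, a fall of -1.34 (SE 0.15, adjusted p = 0.00257). Ppard, the fatty acid receptor PPAR-delta, fell from 8.92, 8.58 and 8.58 to 7.48, 7.30 and 7.62, a difference of -1.23. Cyp7a1, the rate-limiting enzyme of bile acid synthesis, was at 10.23, 9.88 and 10.07 fed and at 11.02, 10.97 and 10.90 starved. Its groups were apart, but the fit gave a difference of 0.90 with a 95% interval of -0.11 to 1.91. Cyp8b1, which sets the share of cholic acid, differed by 1.82 with groups apart (adjusted p = 0.058). Hes6, a repressor of the Hes family, fell by 2.14 and held without any array. Foxq1, a forkhead factor, fell by 1.26 and Klf10, a Kruppel-like factor induced in fasting liver, rose by 1.34, both lost without F4, S3 or S4, Klf10 also without F2 (highest adjusted p 0.105). Aqp8, a water channel of hepatocytes and bile canaliculi, fell by 2.30, held only without starved 3 (highest adjusted p 0.134).

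Of 35 acute phase genes 4 were called higher, Lcn2, Mt1, Mt2 and Il1rn, and 1 lower, Hamp2. Lcn2, a siderophore-binding protein of the acute phase, was at 8.35, 8.70 and 8.27 fed and at 12.49, 10.64 and 13.23 starved. The groups were apart, and the rise of 3.68 (SE 0.53, adjusted p = 0.00932) held without any array. Saa2 and Saa1, serum amyloid A genes, were among the 5 genes with the widest range among starved mice. Saa2 was at 9.19, 6.79 and 13.40 and Saa1 at 7.18, 4.95 and 11.36, so that starved 3 was high and S4 low. The fed values of Saa2 were 6.11, 8.09 and 8.44, the groups overlapped, and neither gene was called. Il1rn, which blocks the interleukin-1 receptor, rose by 0.82, a call held only without starved 3 (highest adjusted p 0.175). Over the 35 genes the median difference was 0.41, but 0.06 among arrays of wide spread and 0.78 among those of narrow spread, to which starved 3 belongs, and 0.18 without starved 3. The neutrophil list had no member of 12 called or under an unadjusted p of 0.05, and a summed level of 9.10 to 9.19 in fed and 9.01 to 9.35 in starved mice, with starved 3 the highest; its part in the Lcn2 values was not tested. Fgl1, a secreted hepatocyte protein related to fibrinogen, was at 10.77, 11.21 and 11.29 fed and at 13.16, 12.44 and 12.74 starved, a rise of 1.69 that held without any array. None of 42 complement and coagulation genes was called by limma, with 6 at an unadjusted p under 0.05.

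Other genes differed widely between mice of 1 group. Lepr, the leptin receptor, was at 5.60, 5.71 and 5.54 fed and at 9.70, 11.09 and 6.29 starved. The groups were apart, but starved 3 stood near the fed mice and the difference of 3.41 had an adjusted p of 0.13; without starved 3 it was called. Cyp2b10, Cyp2b9, Cyp2c39, Adh6-ps1 and the protease gene Ctse ranged over several log2 units among fed or starved mice, with overlapping groups in each case.

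None of 77 cytosolic ribosomal protein genes and none of 75 oxidative phosphorylation genes was called by limma (1 and 7 at an unadjusted p under 0.05), with medians of -0.16 and -0.17, which ran from -0.39 to -0.03 and from -0.28 to -0.10 when 1 WT array was left out. The ribosomal protein median turned with the arrays, 0.18 among those of wide and -0.19 among those of narrow spread. Ribosome biogenesis had a median of 0.40 (0.20 without S4) and 1 call in 40 (2.50%, against 1.41% of all genes). It was Npm1, a nucleolar chaperone, which rose by 0.72 and was lost without F2 or S4 (highest adjusted p 0.0775). Of 45 cell cycle genes, only Tk1, a thymidine kinase, was called (2.22%). It fell by 0.89 and was lost without F4 or S4 (highest adjusted p 0.0667). None of 38 interferon-stimulated genes was called by limma, with 5 at an unadjusted p under 0.05. Ifit3, a member, was at 9.06, 8.96 and 9.18 fed and at 8.95, 7.14 and 7.28 starved (adjusted p = 0.167).

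**Figure D4:**
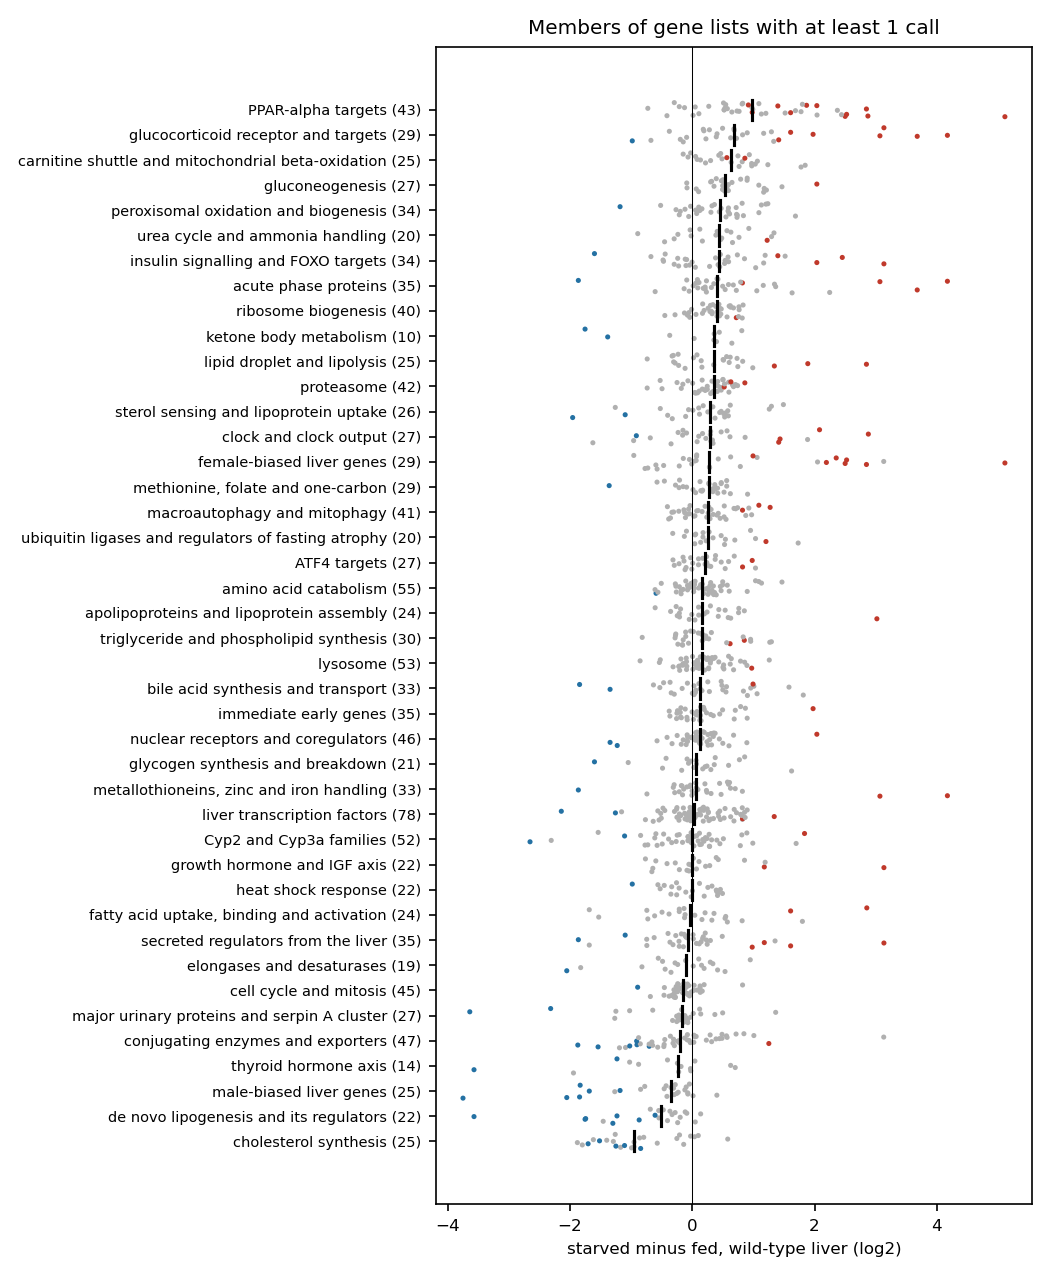
Difference between starved and fed WT mice (x, log2) for each measured member of the gene lists that held at least 1 call (y, number measured in brackets), ordered by their median, the black bar. Red points were called higher, blue points lower and grey points not; PPAR-alpha targets have the highest median, 0.97, and cholesterol synthesis the lowest, -0.95.

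Markers of the non-parenchymal cells of the liver had no call: none of 15 Kupffer cell, 15 sinusoidal endothelial, 15 stellate, 13 cholangiocyte and 17 lymphocyte markers passed in limma. At an unadjusted p under 0.05 there were 3, 4, 5, 0 and 1 in the same order. With 1.41% of all genes called, lists this short can lack a call, so its absence is not a result about these cells. The summed levels of the groups overlapped in each list. Periportal hepatocyte markers had 1 call, Asl, and pericentral ones none in limma (4 of 14 at an unadjusted p under 0.05). Lgals4, a galectin of gut epithelium, was the only call among 15 gut and pancreas markers; it rose from 6.65, 6.43 and 6.56 to 8.34, 8.33 and 7.11, while Vil1 and Krt20 differed by 0.02 and -0.19, and the call was lost without any WT array but starved 3 (highest adjusted p 0.205).

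The response of the KO mice shares no array with that of the WT mice, though both use 1 estimate of the spread. In KO liver 212 genes were called (1.02%). Of the 137 genes that rose in WT liver, 134 were higher in starved than in fed KO mice and 67 were also called there, with a median KO difference of 0.84. Of the 155 that fell, 154 were lower in KO mice and 51 were also called, with a median of -0.65. The 118 genes called in the same direction are 40.4% of the WT and 55.7% of the KO calls, and none was called in opposite directions. Over all genes 67.5% had the same sign in both genotypes. The limma test of the difference between the responses called no gene (0.0%), and the lowest adjusted p was 0.409. An unadjusted p under 0.05 was found at 422 genes, 2.04% of all tested, a smaller share than that threshold alone would give. With array weights, limma called 106. The median SE of that difference was 0.21, against 0.15 for the WT response.

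Single genes with the smallest unadjusted p of this difference are given by value. Lcn2 was higher in fed KO mice, at 10.77, 11.71 and 10.32, than in starved ones, at 9.33, 9.50 and 9.29, the opposite of its rise in WT mice. The responses were 3.68 in WT and -1.56 in KO mice, and without starved S4 their difference was called (-5.98, adjusted p = 0.00237), the only call of this test when 1 array was left out. Fgl1 was at 12.22, 12.69 and 11.70 in fed and at 12.07, 12.22 and 12.05 in starved KO mice, a difference of -0.09 against 1.69 in WT mice. Arv1, a sterol transport gene that rose by 0.78 in WT mice and held without any array, differed by 0.10 in KO mice. In the other direction, Tsc22d3 differed by -0.68 in WT and 0.28 in KO mice, Spc25, a kinetochore gene, by -0.60 and 0.26, and Nr0b2 by -1.34 and -0.51. With all arrays none of these was called different between genotypes; the fall of Spc25 in WT mice was lost without F2, F4, S3 or S4 (highest adjusted p 0.149). Other large WT responses were also large in KO mice, where Cyp4a14 rose by 4.06, Mfsd2a rose by 3.84 and Hsd3b5 differed by -3.99.

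**Figure D5:**
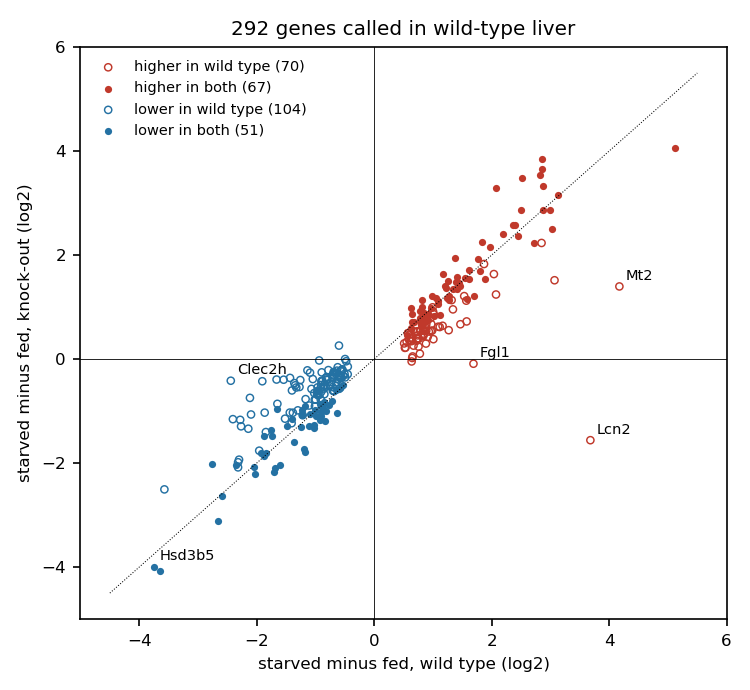
Difference between starved and fed KO mice (y, log2) against that in WT mice (x, log2) for the 292 genes called in WT liver; filled points were called in both genotypes, open points in WT only, and the dotted line marks equal differences. Lcn2 and Fgl1 lie far below the line, and 134 of the genes that rose and 154 of those that fell in WT mice have the same sign on both axes.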

How the data were processed

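Affymetrix whole-transcript arrays measured the liver of 12 mice, 1 array and 1 liver piece per mouse, 3 mice per group. The deposited table holds log2 expression values, made by the authors with RMA, a method that corrects background, normalizes between arrays by quantiles and summarizes probes; RMA, oligo and limma are named per the submitters' processing notes, and the sources used here do not name the array model or genome build. The series matrix held equal values in all 347328 cells.

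Of 28944 lines, 5132 had no gene symbol. One line per symbol, that of the highest mean over 12 arrays, left 20719 genes. All 4 groups were fitted together in limma 3.58.1 (R 4.3.3), with 8 residual degrees of freedom, and Benjamini-Hochberg adjusted p-values under 0.05 over all genes counted as calls. The median half-width of a 95% interval was 0.33 on the log2 scale; the number of arrays limits the precision. A p-value reflects the spread between mice that the labels list separately. The procedure was tested on simulated data. Figures were drawn with Python 3.11.15 and matplotlib 3.10.9.

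The members and the 64 gene lists (1597 of 1615 distinct genes measured) were chosen with earlier results of these data known. Named genes were the 15 largest rises and falls among called genes whose groups did not overlap (predicted and receptor family names left out), up to 6 called members of each list, Lamp2, the 6 largest t-values per direction, the 3 smallest p-values of the genotype difference per direction, and the 5 widest ranges within fed and within starved WT mice; other list members are given by value. Alternatives covered the choice of line, low-level filters, normalization, array weights, the fit, blocks and single arrays left out. Promoters were taken from a RefSeq table of GRCm38.p6, in which 15624 tested genes matched; Cyp4a14, Fdps and Ciart were not looked for elsewhere. Some genes are not reported here.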

Additional observations from a re-analysis of the deposited data

Results flagged for a closer look

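The response of Lcn2 differed between genotypes by -5.24 on the log2 scale, KO minus WT. It carried the smallest unadjusted p of that comparison, 1.97e-05, and an adjusted p of 0.409 in limma, so the call fails the correction. All 3 starved WT mice lay above all 3 fed WT mice, and all 3 starved KO mice lay below all 3 fed KO mice.

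The response of Spc25 differed between genotypes by 0.859, with an unadjusted p of 0.000254 and the same adjusted p of 0.409 in limma. Its values were lower in all 3 starved than in all 3 fed WT mice and higher in all 3 starved than in all 3 fed KO mice.

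A few lines of the deposited table without a gene symbol were also called, and no gene name can be given to them. Of 5132 such lines 15 were called in WT liver (0.292%), a smaller share than the 1.41% of the tested genes. Starvation raised 11 and lowered 4, with differences from -1.84 to 3.38.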

How the results depend on the processing

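Array handling moved the number of WT calls most. Against 292 calls in WT liver, array weights gave 5600, the spread class of the arrays as a block 1225, the SD of each array as a covariate (chosen after seeing the data) 1004, fed F1 and starved 3 left out together 1671, only the 6 WT arrays 11, and a limit of 2-fold 139. Leaving out 1 array gave 64 to 659 calls. In KO liver, with 212 calls, the same settings gave 7639 with array weights, 881 with the spread block, 823 with the covariate and 421 without both arrays, and leaving out 1 array gave 45 to 344. For the difference between genotypes, with 0 calls, array weights gave 106 and leaving out 1 array 0 to 1. The cause of these shifts was not tested. The fit of the 6 WT arrays has fewer degrees of freedom and its own estimate of the spread, and these were not separated. Array weights ran from 0.21 for starved 3 to 4.01 for fed F4 among the WT arrays. The choice of line, filters on low levels, cyclic loess, median centring, equal SDs, a trended robust fit and a limit of 1.5-fold gave 202 to 416 WT calls. With the replicate number as a block, 300 genes were called in WT liver, 224 in KO liver and 0 between them. Whether these numbers pair the mice is not in the labels. Deviations of same-numbered arrays from their group means correlated by -0.17 for number 4, 0.45 for number 5 and 0.53 for number 6. Arrays F5 and S5 were both of narrow spread and F6 and S6 both of wide spread, whereas F4 was narrow and S4 wide. Pairing and spread class therefore cannot be told apart here. No named gene that was called reversed its sign under any setting run. Under omissions of arrays, with the 6 WT arrays alone and within the spread classes this had to follow. Starved and fed values did not overlap at any called gene.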

Other observations

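The genes in this section were chosen after their values were seen, and those not named in the results above lie on none of the gene lists. Receptors and signalling genes of the plasma membrane were among the falls. Adra1b, the alpha-1B adrenergic receptor through which catecholamines act on hepatocytes, was at 9.99, 9.52 and 9.81 in fed mice (F1, F2, F4) and at 8.43, 7.96 and 8.71 in starved mice (S3, S4, 3), a difference of -1.40 (limma, adjusted p = 0.00535). Grk5, a kinase that turns off G protein-coupled receptors, differed by -1.33. Efna1, an ephrin ligand, was at 9.39, 9.79 and 9.49 fed and at 8.48, 8.49 and 8.62 starved, a difference of -1.02. These 3 calls remained when any 1 WT array was left out. Efna3, its neighbour on chromosome 3, fell by 0.91, and Sucnr1, the succinate receptor, differed by -1.91; both calls were lost without F2, F4 or S4, and Sucnr1 also without S3 (highest adjusted p 0.159). Raet1a, Raet1b and Raet1e, similar ligands of an activating receptor of natural killer cells, differed by -2.10, -2.27 and -2.28, and the 3 calls were lost without any WT array but S3 (highest adjusted p 0.196).

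St3gal5, which makes the ganglioside GM3, was at 9.85, 9.59 and 9.71 fed and at 11.05, 11.93 and 11.46 starved, a rise of 1.76. Arrdc4, an arrestin related to Txnip, was at 7.47, 7.49 and 7.51 fed and at 8.78, 8.48 and 8.95 starved, a rise of 1.25. The cold-induced RNA-binding genes Cirbp and Rbm3 rose by 0.96 and 1.54. The first 3 held without any WT array, and Rbm3 was lost without any but F2 (highest adjusted p 0.119). Of the 277 called genes with a place in the RefSeq table, 33 (11.9%) lay next to another gene called in the same direction, in 20 pairs. Among them were Cyp4a14, Cyp4a10, Cyp4a31 and Cyp4a32 on chromosome 4, the Hsd3b and Gstm genes on chromosome 3, and Mt1 and Mt2 on chromosome 8. The Cyp4a, Hsd3b and Gstm copies may share probe signal. No share for all genes stands beside this count, and whether neighbours changed together more often than other genes was not tested.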
